A study of Mus musculus with 8 samples.

Results

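Ion channel genes were examined in cultures of mouse oligodendrocyte progenitors, glial precursors that divide and later give rise to myelin-forming cells. The set holds 33 genes named one by one by channel class: 6 sodium channel subunits, 16 potassium channel subunits and 11 calcium channel subunits. All 33 were found by symbol among 56980 gene IDs, and all 33 passed the filter on low counts with 18905 gene IDs in total. RNA-seq libraries came from cells in low glucose (LG, 2.5 mM, 4 libraries) and from cells in high glucose (HG, 25 mM, 4 libraries). Both groups were wild-type C57BL/6 cells, taken from the cortex of pups of either sex at postnatal day 6 to 8. Cells were captured on dishes coated with an antibody to PDGFRα, after lectin-coated dishes had held back microglia and endothelial cells. All cultures began at 25 mM glucose with PDGF-AA at 10 ng/mL and bFGF at 20 ng/mL, and bFGF was washed out before the glucose experiment while PDGF-AA stayed. In LG cultures, exchange of part of the medium left 12.5 mM glucose after day 1, then 5 mM (day 2) and finally 2.5 mM (day 3), and all cells were collected on day 5. The cells were thus a purified culture under a mitogen, and whether pups were pooled is not given in the sources used here.

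The labels call the cultures independent biological preparations, yet their description codes are shared: replicates 1 and 2 of both groups carry one code (preparation A), replicate 3 of both groups another (preparation B) and replicate 4 of both groups another (preparation C). Each n = 4 therefore counts libraries, and p-values may reflect in part the spread of cultures from 1 preparation. A library held 53869166 to 65733928 counts in LG and 50864130 to 61915909 counts in HG. The 12 progenitor markers, among them Pdgfra and Cspg4, were summed in CPM (counts scaled to library size). The sum was 9640 to 13000 CPM in LG and 9440 to 12800 CPM in HG. By preparation it was 9440 to 10300 CPM in A and 12200 to 13000 CPM in B and C. The 12 astrocyte markers summed to 2010 to 2190 CPM in the libraries of preparation A and to 770 to 928 CPM in those of preparations B and C. The neuronal genes Slc17a7, Gad2 and Stmn2 stayed near 0, while the other 9 of the 12 neuronal markers passed the filter on low counts. Map2 was by far the highest of these, at 848 CPM in LG and 901 CPM in HG on average. Tubb3 averaged 36.9 CPM in LG and 31 CPM in HG, and Syt1 16 and 16.4 CPM. The 12 neuronal markers together, which include genes that glia also use, summed to 897 to 958 CPM in LG and 921 to 1080 CPM in HG. The 10 microglial markers summed to 1.18 to 2.49 CPM in LG and 1.27 to 1.76 CPM in HG. Cx3cr1 and Itgam were at 0 in every library, while Cd68 was counted in all. The 10 endothelial markers summed to 6.19 to 7.66 CPM in LG and 5.24 to 6.96 CPM in HG. Cldn5 and Cdh5 were at 0 in every library, while Kdr and Vwf were counted in all. In bulk libraries, fewer cells of a type and less RNA per cell cannot be told apart.

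Voltage-gated channels open when the membrane depolarizes. Sodium channels carry fast inward current, Kv potassium channels bring the membrane back to rest, and calcium channels couple voltage to calcium entry. Inward rectifiers of the Kir family and tandem-pore K2P potassium channels pass current near the resting potential and hold glial cells at a negative voltage. Oligodendrocyte progenitors are known to carry all of these classes and to receive synaptic contacts from neurons, and their delayed-rectifier, A-type and inwardly rectifying potassium currents change as the cells mature.

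Potassium channels took the top of the ranking by level, given as TMM-scaled CPM per kilobase of exon (RPKM). Kcnj10, which encodes the glial inward rectifier Kir4.1, was the most abundant at 68.9 ± 5.63 RPKM in LG and 65.1 ± 5.01 RPKM in HG (SD, n = 4 each, as for all means here). Kcnd2, an A-type channel of the Kv4 family, followed at 33.1 ± 1.03 RPKM in LG and 35.6 ± 2.44 RPKM in HG. The 8-library ranges of these genes did not overlap with each other or with any lower rank. Kcna6, a delayed rectifier of the Kv1 family, had 22.4 ± 1.5 RPKM in LG and 21.6 ± 2.75 RPKM in HG. Its range overlapped with that of the Kv4 gene Kcnd3, at 17.1 ± 2.02 RPKM in LG and 18.9 ± 2.29 RPKM in HG, and the range of Kcnd3 lay above that of every lower rank. Counts of Kcna6 carry a limit: 39.6% of its exon bases lie under the antisense gene Gm26673, and with no strand setting given, reads of both cannot be told apart.

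In the middle of the order neighbours could not be told apart, because each library range overlapped with the next. This middle ran from Kcnj16 (9.34 ± 0.767 RPKM in LG, 12 ± 1.4 RPKM in HG) through Kcna2, Kcnc1, Scn3b, Kcnk2, Kcnk1 and Kcnk10 to Cacna1h (4.16 ± 0.429 RPKM in LG, 4.09 ± 0.362 RPKM in HG). Genes further apart did separate: every library of Kcnj16, Kcna2, Kcnc1 and Scn3b lay above every library of Kcnk1, Kcnk10 and Cacna1h. Scn3b, an auxiliary beta subunit, was the first sodium channel gene in the order, and Cacna1h, a T-type channel that opens at low voltage, was the first calcium channel gene. The order went on without a clear break, since the ranges of Scn3a and Scn2b reached above the lowest library of Cacna1h, with the P/Q-type gene Cacna1a at 3.21 ± 0.274 RPKM in LG and 3.32 ± 0.171 RPKM in HG. All 4 sodium channel alpha subunits followed Cacna1a, of which Scn3a stood first at 2.88 ± 0.590 RPKM in LG and 3.26 ± 0.443 RPKM in HG. The order ran on through Scn8a, Scn2b, Cacna1c, Cacna1d, Scn1a, Kcna3, Scn2a, Cacna1b, Cacnb4 and Cacna2d1 to Kcnma1, the large-conductance calcium-activated BK channel, at 1.06 ± 0.231 RPKM in LG and 1.18 ± 0.396 RPKM in HG.

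Below a gap that no library range crossed lay Kcna4, Cacna1g, Cacna2d3 and Kcnq3, which averaged 0.337 to 0.544 RPKM in LG and 0.326 to 0.671 RPKM in HG. The lowest 4 were Cacna1e, Kcna5, Kcna1 and Cacnb2, which averaged 0.0716 to 0.190 RPKM in LG and 0.0690 to 0.199 RPKM in HG. Kcna1, Kcna5 and Cacnb2 averaged under 1.1 CPM in both groups. Per kilobase of the longest annotated transcript instead of all exons, 9 of the top 10 genes were shared.

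**Figure D1:**
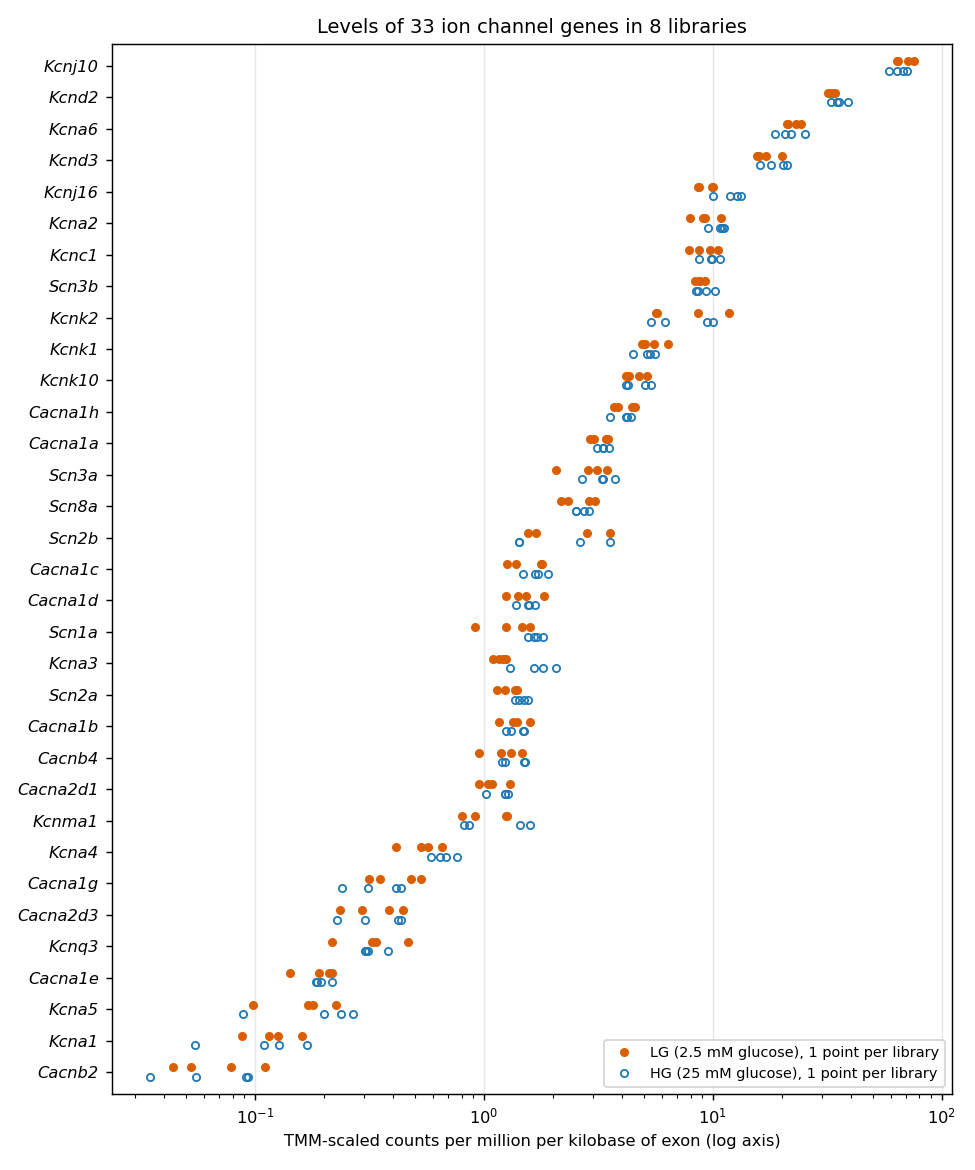
Levels of the 33 channel genes, highest at the top, as TMM-scaled CPM per kilobase of exon on a log axis; filled points are the 4 LG libraries and open points the 4 HG libraries. Kcnj10 (68.9 RPKM in LG, 65.1 RPKM in HG) and Kcnd2 (33.1 RPKM in LG, 35.6 RPKM in HG) stand apart at the top, and only Kcnj16 and Kcna3 have LG points that all lie below the HG points.

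The sequence before the start of a gene is shown for 2 members, the most abundant one and Kcna3, whose LG and HG libraries did not overlap. Both stretches are the 250 bases before the RefSeq start on the plus strand of GRCm38.p6, taken from RefSeq, with Kcnj10 at chr1:172340960-172341209 and Kcna3 at chr3:107035912-107036161. Capitals mark matches on either strand to the GC box GGGCGG and to the SOX core ACAAAG.
Kcnj10: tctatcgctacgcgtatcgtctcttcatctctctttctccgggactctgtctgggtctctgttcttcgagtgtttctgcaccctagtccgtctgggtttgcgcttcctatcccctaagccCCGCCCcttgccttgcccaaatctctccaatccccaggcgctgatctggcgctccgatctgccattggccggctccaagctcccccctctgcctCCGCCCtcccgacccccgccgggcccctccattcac
Kcna3: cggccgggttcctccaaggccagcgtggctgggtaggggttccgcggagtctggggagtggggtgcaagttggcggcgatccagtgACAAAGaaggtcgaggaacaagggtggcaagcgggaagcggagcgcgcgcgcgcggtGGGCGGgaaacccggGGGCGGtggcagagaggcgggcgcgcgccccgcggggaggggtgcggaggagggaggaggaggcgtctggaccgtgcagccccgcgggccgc
The Kcnj10 stretch held 2 GC boxes and 17 CpG sites at 62% GC, and the Kcna3 stretch held 2 GC boxes, 1 SOX core and 31 CpG sites at 74.4% GC. Of the 33 genes, 26 had a match in the promoter table, with 41 start windows. A GC box was in 39% of the member windows and in 32.7% of all 32851 windows. A SOX core was in 22% of the member windows and in 16.5% of all windows. The E-box CAGCTG was in 26.8% of the member windows and in 13% of all, and the TATA box TATAAA in 7.32% of the member windows and in 12.4% of all. These are matches of letters, described without a test.

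The glucose comparison asked whether channel transcripts differed after the cells had been brought to 2.5 mM glucose. No channel gene of the 33 passed in the quasi-likelihood test of edgeR with no replicate block, with the Benjamini-Hochberg adjustment over all genes tested and a threshold of 0.05. Nor did any other gene, so the share called was 0% of 18905. DESeq2 called 4 genes and limma-voom 0, with 0 of the 33 among them. At an unadjusted p under 0.05, 3 members were called (Kcnj16, Kcna3 and Scn1a, all lower in LG), where 3.94% of all genes were called. The LG and HG libraries did not overlap for 2 members (Kcnj16 and Kcna3), where 2.89% of all genes had groups that did not overlap. Proliferation genes moved with the groups by sign: 10 of 10 were lower in LG, and their sum was 1670 to 2220 CPM in LG and 2110 to 2910 CPM in HG. Mki67 was the 1 that passed with the replicate block. Of the 12 progenitor markers, 5 were lower in LG and 1 passed with the block, Neu4, a sialidase, which rose by 0.76 (edgeR adjusted p = 0.00576); Gpr17 and C1ql1 were at 0.38 and 0.42 there (edgeR adjusted p = 0.0523 each). Of the 11 tested markers of myelinating oligodendrocytes, 7 were lower in LG and 1 passed with the block, Myrf, a transcription factor of myelin genes, which rose by 0.60 (edgeR adjusted p = 0.00871). These 4 genes were higher in LG in 4 of 4 pairs, the myelinating markers summed to 577 to 912 CPM in LG and 564 to 822 CPM in HG, and the part of all these genes in the values of the channel genes was not tested.

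Same-numbered LG and HG libraries deviated together, so the numbers were taken to pair the libraries. Signs within pairs are given as values only. The share of all genes with the same sign in 4 of 4 pairs was not computed. With the replicate block, 79 genes (0.418%) passed and 0 of the 33 channel genes were among them. With the block, 7 members had an unadjusted p under 0.05, against 13.4% of all genes: Kcnj16, Scn1a, Kcna3, Kcna2, Scn2a and Kcna4 were lower in LG and Cacna1g was higher. With the block and offsets for GC content and transcript length together, 148 genes (0.783%) passed and 1 member, Kcnj16, was among them.

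By sign alone, 23 of the 33 log2 fold changes (LG over HG) were negative with a median of -0.05, where 9189 of 18905 genes were negative with a median of 0.005; with the block and the offsets the members split into 17 negative and 16 positive with a median of -0.01, where 8339 of all genes were negative with a median of 0.02. Over all genes, GC content and the log2 fold change of the fit with the block correlated at a Spearman rho of 0.356. These genes share the 8 libraries and are no replicates of each other. With the offsets rho was 0.00293, which follows from their making, since they were fitted to GC content in these same libraries. A difference between LG and HG that goes with GC content would be taken out as well. The members had a median GC content of 49.1%, against 49.3% for all genes, and a median longest transcript of 7460 bases, against 2902.5 bases.

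**Figure D2:**
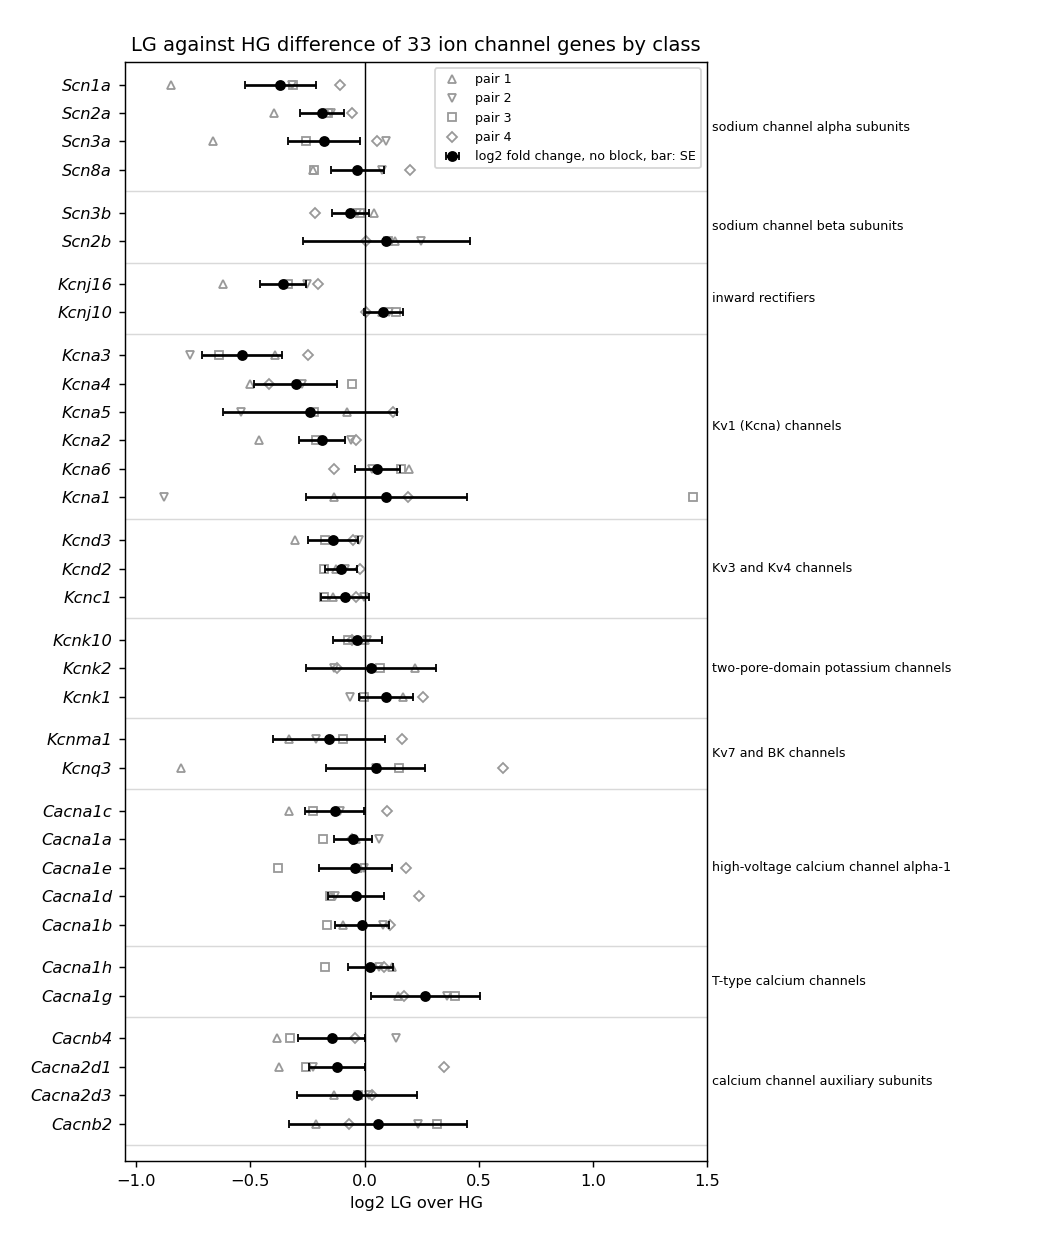
Difference between LG and HG for the 33 channel genes by class; black points are log2 fold changes of the test without a block with the SE as a bar, and open symbols are the differences within each of the 4 replicate numbers. Kcnj16 (-0.36), Kcna3 (-0.535), Scn1a (-0.37), Scn2a, Kcna2, Kcna4, Kcnd2, Kcnd3 and Kcnc1 lie to the left of 0 in all 4 pairs. Kcnj10, Scn2b and Cacna1g lie to the right of 0 in all 4 pairs. The signs of Scn8a, Kcnma1, Kcnk2, Kcnk10, Cacna1h, Cacna1b, Cacna1d, Cacna1e, Cacna2d1 and Cacnb4 turned with the block and offsets for GC content and length.

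The pair of inward rectifiers went opposite ways by sign, with Kcnj16 lower and Kcnj10 higher in LG. Kcnj10 and Kcnj16 encode Kir4.1 and Kir5.1, subunits that can join in 1 channel, and Kir5.1 is known to carry little current without a partner. Kcnj16 (ENSMUSG00000051497) lies on the plus strand of GRCm38 at chr11:110968033-111027968, and Kcnj10 (ENSMUSG00000044708) at chr1:172341210-172374085, also on the plus strand. Kcnj16 had 34.0, 39.2, 39.5 and 34.3 CPM in LG replicates 1 to 4, against 52.2, 46.7, 50.0 and 39.6 CPM in HG replicates 1 to 4. All 4 LG libraries lay below all 4 HG libraries, and the highest LG value was next to that of HG replicate 4. The log2 fold change was -0.36 ± 0.10 (SE, unadjusted p = 0.00551 and adjusted p = 1, edgeR), and Kcnj16 was lower in 4 of 4 pairs, which differed by -0.62, -0.25, -0.34 and -0.20. With the replicate block the edgeR adjusted p was 0.0748, and with the block and the offsets Kcnj16 fell by 0.28 with an edgeR adjusted p of 0.0475. That call was lost without pair 1 (-0.23, edgeR adjusted p = 0.230), without pair 2 (-0.30, 0.223) and without pair 3 (-0.31, 0.0885), and stood without pair 4 (-0.29, 0.0272).

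Kcnj10 had 385, 410, 349 and 346 CPM in LG replicates 1 to 4, against 365, 380, 317 and 345 CPM in HG replicates 1 to 4. The groups overlapped, and replicates 1 and 2 were the highest in each group. Its log2 fold change was 0.08 ± 0.08 (SE, unadjusted p = 0.356, edgeR), with LG above HG in 4 of 4 pairs, the smallest difference being 0.005 in pair 4.

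The log2 ratio of Kcnj16 to Kcnj10 CPM within each library was chosen as a measure after the values had been seen. It was -3.50, -3.39, -3.14 and -3.34 in LG replicates 1 to 4, against -2.81, -3.03, -2.67 and -3.13 in HG replicates 1 to 4. The LG values all lay below the HG values, though LG replicate 3 and HG replicate 4 were close. The means were -3.34 ± 0.15 in LG and -2.91 ± 0.21 in HG (SD, n = 4 each), a difference of -0.435, and the ratio was lower in LG in 4 of 4 pairs. Since the values prompted the measure, it is a description with no test.

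Most Kv1 genes encode delayed rectifiers, which shape the outward current of progenitors, and Kcna4 encodes a channel that inactivates quickly. Of the 6 members, 4 were lower in LG and 2 higher, with a median log2 fold change of -0.21, and none passed. Kcna3, the Kv1.3 gene (ENSMUSG00000047959, chr3:107036169-107038070, plus strand), had 2.39, 2.30, 2.21 and 2.08 CPM in LG replicates 1 to 4, against 3.15, 3.92, 3.46 and 2.48 CPM in HG replicates 1 to 4. The LG libraries were close to each other and all below the HG libraries, of which replicate 4 was the lowest. Its log2 fold change was -0.535 ± 0.175 (SE, unadjusted p = 0.0122 and adjusted p = 1, edgeR), the largest of the 33 in size, with an edgeR adjusted p of 0.168 with the replicate block and 0.0708 with the block and the offsets. Kcna3 was lower in LG in 4 of 4 pairs, with differences of -0.39, -0.765, -0.64 and -0.25.

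Kcna6, the most abundant Kv1 gene, had 127, 125, 145 and 137 CPM in LG replicates 1 to 4, against 111, 123, 130 and 150 CPM in HG replicates 1 to 4. The groups overlapped, and the log2 fold change was 0.06 ± 0.10 (SE). Kcna2 had 94.8, 108, 110 and 130 CPM in LG replicates 1 to 4, against 131, 113, 128 and 133 CPM in HG replicates 1 to 4. LG replicate 1 was the lowest library, LG replicate 4 lay among the HG values, and the log2 fold change was -0.19 ± 0.10 (SE, unadjusted p = 0.0909, edgeR), or -0.07 with the block and the offsets.

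Kcna4 had 1.99, 2.58, 3.19 and 2.76 CPM in LG replicates 1 to 4, against 2.83, 3.12, 3.32 and 3.70 CPM in HG replicates 1 to 4. LG was lower in 4 of 4 pairs while the groups overlapped, and the log2 fold change was -0.30 ± 0.18 (SE, unadjusted p = 0.126, edgeR). Kcna5 and Kcna1 were sparse, at 0.255 to 0.766 CPM and 0.263 to 0.804 CPM over the 8 libraries. Their log2 fold changes of -0.24 ± 0.38 and 0.095 ± 0.35 (SE) were smaller than their errors.

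The sodium channel alpha subunits form the pore of the fast sodium current, which progenitors carry at a lower density than neurons. All 4 were lower in LG by sign, with a median log2 fold change of -0.18, and with the block and the offsets 3 of 4 were lower with a median of -0.055. Their median GC content was 43.3%, below the 49.3% of all genes, and Scn8a was the highest of the 4 at 50.8%. Scn1a (ENSMUSG00000064329, chr2:66270778-66440840, minus strand) had 10.2, 14.0, 16.3 and 17.7 CPM in LG replicates 1 to 4, against 18.4, 17.4, 20.2 and 19.0 CPM in HG replicates 1 to 4. LG replicate 1 was the lowest by a wide margin, and LG replicate 4 lay just above HG replicate 2. The log2 fold change of Scn1a was -0.37 ± 0.16 (SE, unadjusted p = 0.0395 and adjusted p = 1, edgeR), with an edgeR adjusted p of 0.156 with the replicate block and 0.157 with the block and the offsets, and it was lower in LG in 4 of 4 pairs. Without LG replicate 1 the log2 fold change of Scn1a was -0.23.

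Scn2a had 14.5, 15.8, 17.8 and 17.5 CPM in LG replicates 1 to 4, against 19.1, 17.5, 19.9 and 18.1 CPM in HG replicates 1 to 4. It was lower in LG in 4 of 4 pairs, and LG replicate 3 lay above HG replicate 2. Its log2 fold change was -0.19 ± 0.10 (SE, unadjusted p = 0.0786, edgeR), and -0.065 with the block and the offsets. Scn3a, which is typical of the developing brain, had 25.8, 35.5, 39.1 and 43.0 CPM in LG replicates 1 to 4, against 41.0, 33.3, 46.7 and 41.3 CPM in HG replicates 1 to 4. LG was lower in pairs 1 and 3 and higher in pairs 2 and 4, and the log2 fold change was -0.18 ± 0.16 (SE). Scn8a ran from 34.2 to 48.1 CPM in LG and from 39.7 to 45.6 CPM in HG, with a log2 fold change of -0.03 ± 0.12 (SE) that was 0.02 with the block and the offsets.

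The beta subunits are single-span partners that tune the gating and placement of the pore subunit. Scn3b had 47.5, 45.9, 50.4 and 48.2 CPM in LG replicates 1 to 4, against 46.1, 47.0, 51.2 and 56.1 CPM in HG replicates 1 to 4. The groups overlapped and all but HG replicate 4 were close to each other, with a log2 fold change of -0.06 ± 0.08 (SE). Scn2b, at 0.095 ± 0.37 (SE), varied between preparations and is described with them.

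**Figure D3:**
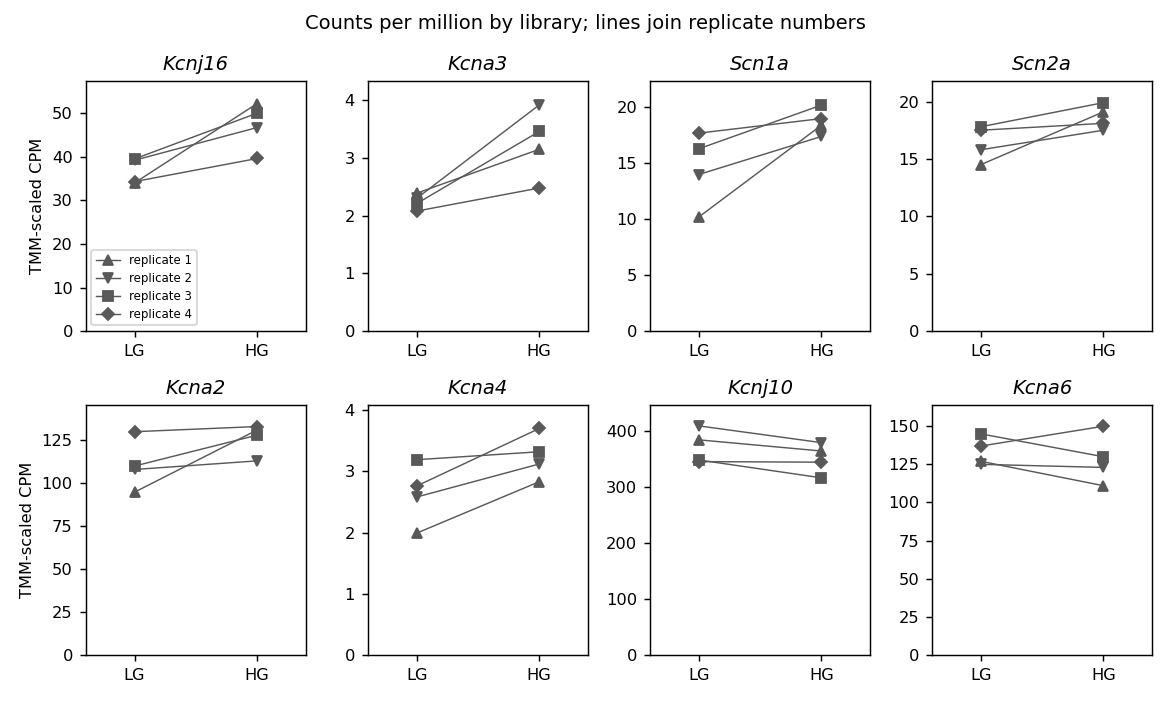
TMM-scaled CPM of 8 channel genes in each library, with LG at the left and HG at the right of each panel; lines join libraries of the same replicate number and every axis starts at 0. Kcnj16, Kcna3, Scn1a, Scn2a, Kcna2 and Kcna4 are lower in LG in 4 of 4 pairs, Kcnj10 is higher in LG in 4 of 4 and Kcna6 in 3 of 4.

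The Kv4 and Kv3 genes were among the most abundant, with small log2 fold changes of -0.14 to -0.085. Kv4 channels carry the transient A-type current, and Kcnc1 is a fast delayed rectifier of the Kv3 family. Kcnd2 had 165, 173, 177 and 167 CPM in LG replicates 1 to 4, against 180, 183, 200 and 170 CPM in HG replicates 1 to 4. It was lower in LG in 4 of 4 pairs, with log2 differences of -0.18 to -0.02, the groups overlapped through HG replicate 4, and the log2 fold change was -0.10 ± 0.07 (SE, unadjusted p = 0.162, edgeR). Kcnd3 ran from 149 to 192 CPM in LG and from 154 to 202 CPM in HG, at -0.14 ± 0.11 (SE). Kcnc1 ran from 74.6 to 99.8 CPM in LG and from 82.0 to 102 CPM in HG, with a log2 fold change of -0.085 ± 0.10 (SE). All 3 were lower in LG in 4 of 4 pairs, Kcnc1 by only -0.002 in pair 2, and by sign also with the block and the offsets. With the replicate block the edgeR unadjusted p was 0.0505 for Kcnd3 and 0.15 for Kcnc1. With the block and the offsets it was 0.0998 for Kcnd3 and 0.041 for Kcnc1. None of the 3 passed.

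Channels of the tandem-pore K2P family give background potassium current. Kcnk1 ran from 11 to 14.2 CPM in LG and from 10.0 to 12.5 CPM in HG, at a log2 fold change of 0.09 ± 0.12 (SE). Kcnk2 and Kcnk10, which encode the mechanically gated TREK channels, had log2 fold changes of 0.03 ± 0.285 and -0.03 ± 0.11 (SE), and the sign of each turned with the block and the offsets. The SE of Kcnk2 was 0.07 with the replicate block, against 0.285 without it, and 12.2% of its exon bases lie under A430027H14Rik on the other strand. Of the remaining potassium channel genes, Kcnq3, a subunit of the M-current, was at 0.05 ± 0.22 and Kcnma1 at -0.15 ± 0.245 (SE).

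No calcium channel gene passed in LG against HG. The 5 high-voltage-activated alpha-1 genes, from the L-type Cacna1c and Cacna1d to the R-type Cacna1e, had log2 fold changes of -0.13 to -0.01, and 3 of the 5 were positive with the block and the offsets. Cacna1a, the most abundant of them, had 34.7, 39.7, 33.3 and 38.9 CPM in LG replicates 1 to 4, against 35.6, 38.0, 37.8 and 40.3 CPM in HG replicates 1 to 4. The libraries of both groups were interleaved, and the log2 fold change was -0.05 ± 0.08 (SE, unadjusted p = 0.557, edgeR). Cacna1b, the N-type gene, ran from 11.6 to 15.9 CPM in LG and from 12.4 to 14.9 CPM in HG.

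Of the T-type genes, Cacna1h had 37.8, 44.8, 36.2 and 43.5 CPM in LG replicates 1 to 4, against 34.8, 42.9, 40.9 and 41.1 CPM in HG replicates 1 to 4. It was interleaved as well, with a log2 fold change of 0.025 ± 0.10 (SE) that was -0.02 with the block and the offsets. Cacna1g had 4.89, 5.39, 3.21 and 3.56 CPM in LG replicates 1 to 4, against 4.42, 4.19, 2.43 and 3.16 CPM in HG replicates 1 to 4. LG lay above HG in 4 of 4 pairs, while the groups overlapped as replicates 1 and 2 were high in both. Its log2 fold change was 0.265 ± 0.24 (SE, unadjusted p = 0.293, edgeR), and with the replicate block it had an unadjusted p of 0.0480 and an edgeR adjusted p of 0.366.

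The auxiliary calcium channel subunits carry the pore to the membrane and set its gating. Cacnb4 was the highest of the 4 per kilobase of exon, while Cacna2d1 was higher in CPM and per kilobase of the longest transcript. Cacnb4 had 8.51, 11.8, 10.7 and 13.1 CPM in LG replicates 1 to 4, against 11.1, 10.8, 13.4 and 13.5 CPM in HG replicates 1 to 4. LG was lower in 3 of 4 pairs with overlapping groups, at a log2 fold change of -0.14 ± 0.15 (SE), which was 0.001 with the block and the offsets, and 16% of its exon bases lie under A430018G15Rik on the other strand. Cacna2d1 was at -0.12 ± 0.12, Cacna2d3 at -0.03 ± 0.26 and Cacnb2 at 0.06 ± 0.39 (SE), each no larger than its error.

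More channel genes passed between preparations than between glucose groups. In a fit with preparation and glucose group as terms, 7 of the 33 genes differed between preparations at an edgeR adjusted p under 0.05, beside 13.7% of all genes. Each such p is from a joint test of preparations A, B and C, and neither B over A nor C over A was tested alone. The 7 were Scn2b, Kcnk2, Kcnma1, Cacna2d3, Cacna1g, Cacnb2 and Kcnk10. The astrocyte markers differed between preparations in 12 of 12 cases, though not all in the same way: S100b averaged 38.5, 51.7 and 65.5 CPM in preparations A, B and C, and Sox9 averaged 295, 305 and 223 CPM, while the other 10 were highest in preparation A. Of these 10, Aqp4, the astrocyte water channel, had 110, 105, 6.38 and 4.04 CPM in LG replicates 1 to 4, against 108, 114, 4.76 and 2.82 CPM in HG replicates 1 to 4. Markers of other cell types differed too: 7 of the 12 progenitor markers and 8 of the 11 tested myelinating markers passed between preparations. Among the other lists 3 mural cell, 2 neuronal, 2 endothelial and 2 proliferation genes passed, and 0 microglial ones. Mag averaged 12.5, 0.89 and 0.781 CPM in preparations A, B and C, while Sox10 averaged 322, 635 and 871 CPM. The part of any of these markers in the differences of the channel genes was not tested.

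Scn2b had 7.28, 7.90, 13.1 and 16.6 CPM in LG replicates 1 to 4, against 6.64, 6.64, 12.2 and 16.6 CPM in HG replicates 1 to 4. It was low in preparation A and high in preparations B and C in both groups. The log2 differences were 0.83 (B over A) and 1.225 (C over A), with a joint edgeR adjusted p of 4.28e-05. Kcnk10 had 36.7, 37.8, 42.0 and 45.4 CPM in LG replicates 1 to 4, against 36.7, 37.5, 44.2 and 47.2 CPM in HG replicates 1 to 4. It went the same way with smaller differences of 0.21 (B over A) and 0.32 (C over A), at a joint edgeR adjusted p of 0.0335. Kcnk10 did not pass in any of the 8 fits that left out 1 library.

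The other 5 were high in preparation A. Kcnk2 had 58.0, 42.6, 28.0 and 28.1 CPM in LG replicates 1 to 4, against 49.8, 46.7, 26.7 and 30.6 CPM in HG replicates 1 to 4. It differed by -0.85 (B over A) and -0.75 (C over A), with a joint edgeR adjusted p of 0.000849. Kcnma1 had 21.5, 21.2, 13.7 and 15.6 CPM in LG replicates 1 to 4, against 27.0, 24.5, 14.6 and 13.9 CPM in HG replicates 1 to 4. It differed by -0.73 (B over A) and -0.66 (C over A), with a joint edgeR adjusted p of 0.00164. In both genes the libraries of preparation A lay above all others, whichever the glucose group. Cacna1g, with the values given above, differed by -0.75 (B over A) and -0.49 (C over A), with a joint edgeR adjusted p of 0.0143.

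Cacna2d3 had 3.36, 3.86, 2.57 and 2.05 CPM in LG replicates 1 to 4, against 3.68, 3.81, 2.63 and 2.00 CPM in HG replicates 1 to 4. It differed by -0.50 (B over A) and -0.86 (C over A), with a joint edgeR adjusted p of 0.0125. Cacnb2 was the sparsest, with 1.04, 1.47, 0.582 and 0.694 CPM in LG replicates 1 to 4, against 1.21, 1.24, 0.460 and 0.730 CPM in HG replicates 1 to 4. It differed by -1.26 (B over A) and -0.80 (C over A), with a joint edgeR adjusted p of 0.0245. Again the libraries of preparation A were the highest in both groups. The call was lost in 7 of the 8 fits without 1 library for Cacnb2, in 3 of 8 for Cacna1g and in 2 of 8 for Cacna2d3.

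Kcnj10, which mature astrocytes also express strongly, did not pass between preparations. It averaged 385 CPM in preparation A, 333 CPM in preparation B and 346 CPM in preparation C (edgeR unadjusted p = 0.0373 and adjusted p = 0.156). Every library of preparation A (365 to 410 CPM) lay above every library of B and C (317 to 349 CPM). The part of astrocytes in the Kcnj10 values was not tested. Kcnj16 averaged 43.0, 44.7 and 36.9 CPM in preparations A, B and C (edgeR adjusted p = 0.248). Kcnd3 came closest of the genes that did not pass, with 188, 162 and 152 CPM in preparations A, B and C (edgeR adjusted p = 0.0521).

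**Figure D4:**
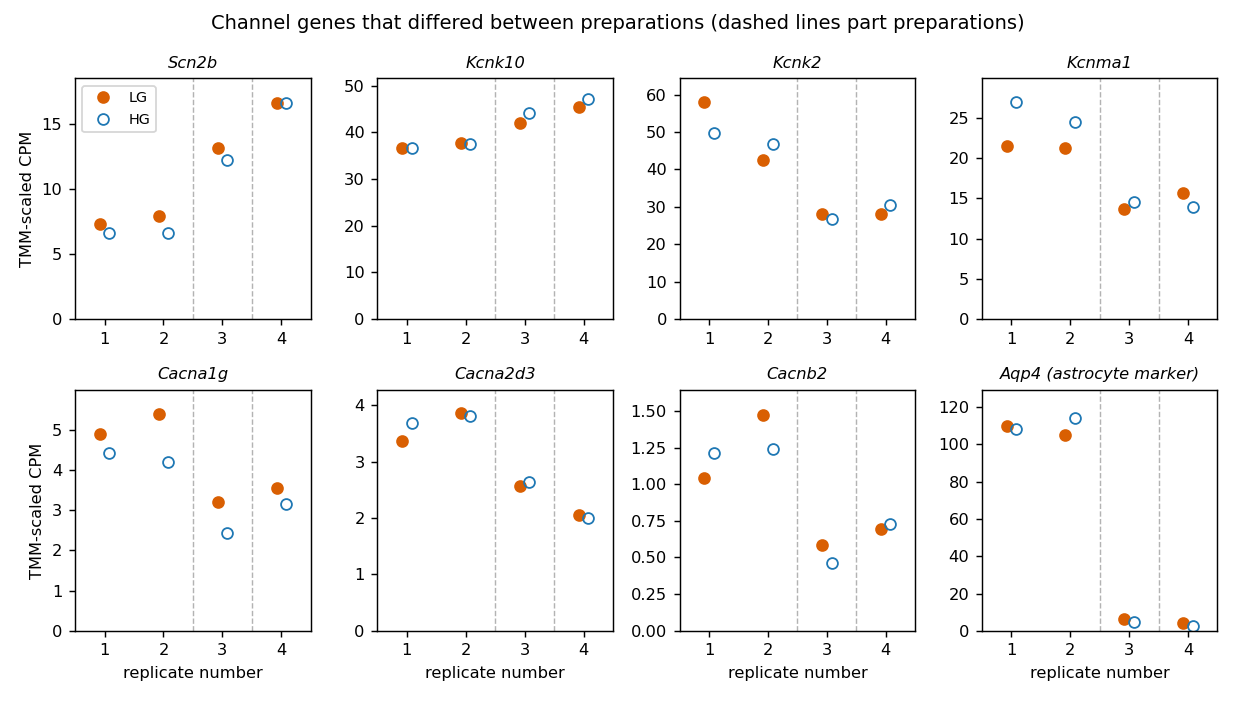
TMM-scaled CPM of the 7 channel genes that differed between preparations and of the astrocyte marker Aqp4, by replicate number; filled points are LG, open points are HG, dashed lines part preparation A (replicates 1 and 2), B (replicate 3) and C (replicate 4), and every axis starts at 0. Scn2b and Kcnk10 are lowest in preparation A, the other 5 channel genes are highest there, and Aqp4 drops below 7 CPM in preparations B and C.

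The channel genes outside the 33 were taken from a list of 106 further subunits, of which 68 were tested. None passed without the block and none with it. By sign 38 were higher and 30 lower in LG, with a median log2 fold change of 0.04, and 4 had an unadjusted p under 0.05, beside 3.94% of all genes. The 5 most abundant per length were auxiliary subunits. Cacng4, a gamma subunit that also serves as a partner of AMPA receptors, had 104 ± 2.12 RPKM in LG and 102 ± 5.48 RPKM in HG, above Kcnj10. Kcnip3, a calcium-binding partner of Kv4 channels, had 71.5 ± 11 RPKM in LG and 85.7 ± 13.8 RPKM in HG, and was lower in LG in 4 of 4 pairs with a log2 fold change of -0.26 ± 0.14 (SE, unadjusted p = 0.0896, edgeR). Cacng7, another gamma subunit, had 83.3 ± 7.69 RPKM in LG and 73.9 ± 13.1 RPKM in HG. Cacnb3, a beta subunit, had 15.0 ± 1.12 RPKM in LG and 13.2 ± 1.02 RPKM in HG, at 0.18 ± 0.08 (SE, unadjusted p = 0.0521, edgeR), and Cacng8 had 9.85 ± 0.656 RPKM in LG and 10.5 ± 1.31 RPKM in HG. With the block and the offsets 1 of the 68 passed: Nalcn, the sodium leak channel that lets a small resting sodium current in, rose by 0.255 (edgeR adjusted p = 0.0456), with 68.2 CPM in LG and 60.8 CPM in HG on average and LG above HG in 4 of 4 pairs. That call too was lost without pair 1, 2 or 3 (edgeR adjusted p = 0.201, 0.255 and 0.125) and stood without pair 4 (0.0166). Between preparations 12 of the 68 passed, beside 13.7% of all genes.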

How the data were processed

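RNA of 4 LG and 4 HG libraries was counted per Ensembl gene, and the deposited table holds raw, whole-number counts with no scaling by the authors. Per the submitters' processing notes, which give neither roles nor order, the tools were STAR, featureCounts, CASAVA 1.8.2 and DESeq2, and the genome was mm10. How strands and multiply matching reads were treated, and in which annotation release, is not given in the sources used here. The labels state a depth of 15 to 30 M paired-end reads per sample, below the column sums in the report.

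Symbols, exon lengths and GC content came from a GENCODE annotation of GRCm38. Counts were tested in R 4.3.3 with edgeR 4.0.16: filterByExpr, TMM scaling and the quasi-likelihood test with robust dispersions, with Benjamini-Hochberg adjustment over all genes tested at 0.05. An SE is the absolute log2 fold change divided by the root of F. CPM and RPKM use the TMM factors, and pair differences use log2 CPM with a prior count of 2. Offsets were a smooth trend of each library on GC content and transcript length, from mgcv 1.9.3. Alternatives were DESeq2 1.42.0, limma-voom from limma 3.58.1, other filters and scaling, blocks and left-out libraries. The tests were tried on simulated counts.

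Libraries carry numbers 1 to 4 in their titles in both groups. Deviations from the group means correlated across genes at r of 0.448 to 0.625 between same-numbered LG and HG libraries and at 0.419 at most between different numbers, so the numbers were taken to pair the libraries. Replicates differed beyond counting noise, and none repeated another.

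The members and the lists of other channels and of markers were chosen with earlier results of these data known. Values of every library are given for the most abundant member of each of 10 classes, for members that pass with or without the block, and for the 6 with the smallest p between glucose groups and between preparations.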

Additional observations from a re-analysis of the deposited data

Results flagged for a closer look

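In 2 of the 66 groups of 4 libraries (33 genes in LG and in HG), 1 library stood far from the other 3, where chance gives about 3.3 at 1 in 20. Cacna2d1, which encodes an auxiliary subunit that raises calcium channel density at the membrane, had 12.7 CPM in HG replicate 4, below the 15.3 to 15.8 CPM of the other HG libraries. Its difference in that pair was 0.35 on the log2 scale, while the other 3 pairs ran from -0.37 to -0.225. Kcnq3, a subunit of the M-current, had 5.61 CPM in HG replicate 1, above the 4.47 to 4.61 CPM of the other HG libraries, and pair 1 was the one in which it was lower in LG, at -0.80.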

How the results depend on the processing

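The count of genes that passed in LG against HG was 0 without a block and in each of the 8 fits without 1 library. It was 79 with the replicate block, 148 with the replicate block and the offsets, 1 with the preparation as a block, 4 by DESeq2 and 17 with counts summed per preparation (chosen after seeing the data). The count of channel genes was 1 with the replicate block and the offsets and 0 in the others of the 19 settings. Of the 33 log2 fold changes, 17 kept their sign in all of these and 16 did not. With the replicate block and the offsets, signs turned for Kcnk2 (-0.012), Kcnk10 (0.043), Cacna1h (-0.021), Scn8a (0.021), Cacna1d (0.015), Cacna1b (0.011), Cacnb4 (0.001), Cacna2d1 (0.017), Kcnma1 (0.011) and Cacna1e (0.060). With the offsets and no block they turned for Kcnk10 (0.034), Cacna1h (-0.020), Scn8a (0.028), Cacna1d (0.024), Cacna1b (0.012), Cacna2d1 (0.024) and Cacna1e (0.066). Without preparation A, chosen after seeing the data, they turned for Kcnk2 (-0.027), Cacna1h (-0.037), Scn8a (0.006), Cacna1d (0.059), Cacna2d1 (0.053) and Kcnma1 (0.041). Signs also turned in fits without 1 library, which gave Cacna1b -0.093 to 0.058, Cacna1d -0.145 to 0.042, Cacna1e -0.109 to 0.075, Cacna1h -0.032 to 0.076, Cacna2d3 -0.188 to 0.113, Cacnb2 -0.236 to 0.265, Kcna1 -0.139 to 0.347, Kcna6 -0.004 to 0.141, Kcnk10 -0.092 to 0.038, Kcnk2 -0.224 to 0.179, Kcnma1 -0.292 to 0.026, Kcnq3 -0.154 to 0.207, Scn2b -0.160 to 0.404 and Scn8a -0.115 to 0.048. The cause was not tested. The ratio of Kcnj16 to Kcnj10 differed by -0.508 to -0.356 without 1 library. With the replicate block and the offsets but without 1 pair, 13 to 730 genes and 0 to 2 channel genes passed, at -0.306 to -0.228 for Kcnj16 and 0.230 to 0.278 for Nalcn (chosen after seeing the data). Between preparations, 1575 to 2162 genes and 4 to 7 channel genes passed without 1 library, 2545 genes and 8 channel genes with relative log expression scaling, 3592 and 8 with no filter and 2933 and 8 by DESeq2. Kcnk10 did not pass with no filter (0.193 for B and 0.295 for C over A, joint edgeR adjusted p = 0.105). Kcna1, Kcna5 and Cacnb2 gave no value under a mean CPM of at least 1. With 4 libraries a group and shared preparation codes, differences of the size seen here in the rarest genes lie within the error of the fit.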

Other observations

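The 3 small-conductance calcium-activated potassium channel genes lie outside the 33 and were picked after their values had been seen. Of these, 2 differed between preparations, as did markers of astrocytes and of other cell types, whose part in this was not tested. Kcnn3 averaged 10.4 CPM in preparation A, 2.52 CPM in preparation B and 2.48 CPM in preparation C. Kcnn2 averaged 4.11, 0.583 and 0.460 CPM in the same order. Kcnn1, at 3.92, 3.52 and 3.56 CPM, did not pass (edgeR adjusted p = 0.740). Kcnj3, a G protein-gated inward rectifier, went the other way, with 2.32 CPM in preparation A, 4.56 CPM in preparation B and 7.62 CPM in preparation C (edgeR adjusted p = 0.000667).

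Of the genes outside the 33, 4 had an unadjusted p under 0.05 in LG against HG, beside 3.94% of all genes. Scn9a, Scn7a and Kcnh7 were lower in LG and Hcn2 was higher. Scn9a, a sodium channel gene of sensory neurons, averaged 0.159 CPM in LG and 0.403 CPM in HG, from only 5 to 24 counts per library. Scn7a averaged 0.651 CPM in LG and 1.23 CPM in HG, and Kcnh7 0.955 CPM in LG and 1.48 CPM in HG. Hcn2, a pacemaker channel gene, averaged 4.80 CPM in LG and 3.69 CPM in HG. None of them passed the adjustment with or without the replicate block.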
